A study of Mus musculus with 18 samples.

Results

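Liver X receptor (LXR) target genes and genes of oxysterol signalling were followed in cells of the RAW line, which derive from mouse macrophages, through 22 h of Toll-like receptor stimulation with and without apilimod. The set was a fixed list of 9 genes (Abca1, Abcg1, Mylip, Apoe, Lpcat3, Nr1h2, Nr1h3, Ch25h and Gpr183) out of the 18193 genes named on the array. The list was chosen with earlier results of these data known. Members were found as the probe sets annotated to these symbols, which gave 12 probe sets for 8 of the genes, and the probe set with the highest mean stood for its gene. No probe set was annotated to Nr1h2 alone, and it was not analysed here. Of the 8 genes, 6 entered the tests with 12257 genes in all. Apoe and Ch25h did not, because their intensity was above the filter level of 18.1 on 0 and 2 of the 18 arrays, and at least 3 were required.

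All cells were grown in DMEM. In 3 arms they received R848, a synthetic agonist of Toll-like receptor 7, at 0.1 mM as the labels give it. The first of these arms also received apilimod at 1 uM, the second API09 at 1 uM and the third no compound, and the fourth arm was medium alone. Apilimod inhibits PIKfyve, the lipid kinase that makes phosphatidylinositol bisphosphate on endosomes and lysosomes, and the series design calls API09 its inactive analog. Each arm had 1 array at 1, 3, 7 and 22 h, and medium had 2 more arrays at 0 h, which makes 4, 4, 4 and 6 arrays. Nothing says that arrays came from separate cultures, so p-values reflect only how far these arrays spread, and that spread may be technical. The R848+API09 and R848 arrays of an hour served as a pair of controls, called R848 controls below. In these bulk samples fewer cells with a transcript and less of it per cell cannot be told apart.

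LXRs are nuclear receptors that oxysterols, oxidised forms of cholesterol, switch on when a cell holds excess sterol. Their targets move cholesterol out of the cell (Abca1, Abcg1 and Apoe), limit its uptake (Mylip) and remodel membrane phospholipid (Lpcat3). In macrophages, Toll-like receptor signals also induce Ch25h, which hydroxylates cholesterol to an oxysterol, and a further product of that oxysterol is sensed by the receptor Gpr183, which guides migrating immune cells.

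The macrophage label held in these arrays: all 10 macrophage markers were above the filter level on all 18 arrays, Cd68 at 4778 to 8931 and Lyz2 at 14533 to 17984. Of 14 markers of T cells, B cells, fibroblasts and epithelium on the array, 4 were above it on every array (Epcam at 42.9 to 61.0, Cd3e at 25.1 to 39.4, Dcn at 18.9 to 35.7 and Krt8 at 19.9 to 26.8) and 8 on none. Median intensity ran from 17.5 to 19.2, with the highest value on the R848+API09 array at 22 h. The R848+API09 array at 22 h stood apart, with an upper quartile of 87.0 against 101 to 119 on the other arrays, and a mean log2 intensity of the 18S ribosomal control probe sets of 10.53 against 7.94 to 10.14. Members' tests at 22 h are also given without it where that changed a call.

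The promoters of the 4 genes that carry the results and have an entry in the sequence table are shown. Their windows differ in whether a match to the receptor's element was found. Each line gives the 250 bases before a listed start of the gene, 5′ to 3′ on the gene's strand, from RefSeq on GRCm38.p6. For Abca1 that start lies inside the annotated gene, which reaches to chr4:53159988, so its window overlaps the gene. Abca1 lies on the minus strand at chr4:53159896-53160145, Mylip on the plus strand at chr13:45389492-45389741, Ch25h on the minus strand at chr19:34475149-34475398 and Gpr183 on the minus strand at chr14:121965194-121965443.
Abca1: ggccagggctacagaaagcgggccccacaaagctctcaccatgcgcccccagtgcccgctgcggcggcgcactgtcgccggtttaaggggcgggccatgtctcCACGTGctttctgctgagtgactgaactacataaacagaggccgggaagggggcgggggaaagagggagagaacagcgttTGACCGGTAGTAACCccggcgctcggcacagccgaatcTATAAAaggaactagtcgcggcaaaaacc
Mylip: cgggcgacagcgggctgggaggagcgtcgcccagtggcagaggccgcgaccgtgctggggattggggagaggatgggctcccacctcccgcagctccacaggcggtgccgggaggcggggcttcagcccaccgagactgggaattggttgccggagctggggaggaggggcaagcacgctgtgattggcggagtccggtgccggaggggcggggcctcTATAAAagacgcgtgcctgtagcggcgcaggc
Ch25h: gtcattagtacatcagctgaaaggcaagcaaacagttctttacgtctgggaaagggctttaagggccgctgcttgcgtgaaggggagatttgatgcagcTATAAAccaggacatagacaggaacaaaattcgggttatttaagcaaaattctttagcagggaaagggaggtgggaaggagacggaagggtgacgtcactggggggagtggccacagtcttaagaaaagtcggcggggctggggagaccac
Gpr183: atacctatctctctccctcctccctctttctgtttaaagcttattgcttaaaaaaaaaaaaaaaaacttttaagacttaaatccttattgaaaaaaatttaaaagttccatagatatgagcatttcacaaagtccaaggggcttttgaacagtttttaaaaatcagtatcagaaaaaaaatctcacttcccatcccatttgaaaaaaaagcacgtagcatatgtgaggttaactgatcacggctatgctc
Capitals mark matches to the motifs searched on both strands. In Abca1 they are, in order, the E-box CACGTG, a direct repeat spaced by 4 bases, which is the form LXR binds, and the TATA box TATAAA. Mylip and Ch25h hold only the TATA letters, and Gpr183 holds no match. The repeat, searched in a relaxed form, reads TGACCGGTAGTAACC and lies 67 to 53 bases before the listed start of Abca1, inside the annotated gene. It was present in 0.621% of 32851 promoter windows of this length, against 6.02% for the E-box and 12.4% for the TATA box. The NF-kB consensus (3.9% of windows), the interferon-stimulated response element (2.98%) and the AP-1 site TGANTCA (6.75%) matched in none of the 4 windows. Of the members, 8 had promoter entries, and the window of no other member held the repeat. A match is a description of letters, and no binding was measured. An element outside the 250 bases, or in another form, would have been missed. A window without a match therefore does not show that a gene lacks the element.

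Abca1, the transporter that loads cholesterol onto lipid-poor apolipoprotein, was induced by R848 at 7 h, and the induction was not seen with apilimod. With R848+apilimod its intensity was 112 at 1 h, 159 at 3 h, 42.0 at 7 h and 74.0 at 22 h. With R848+API09 the values at those hours were 107, 341, 491 and 68.8, and with R848 alone 91.4, 358, 606 and 90.0. In medium it was 103 and 104 at 0 h, 87.5 at 1 h, 257 at 3 h, 78.0 at 7 h and 141 at 22 h. The 4 control arrays of 3 and 7 h were thus above every other array, while the R848+apilimod array at 7 h was the lowest of all 18. At 7 h the apilimod array stood at 7.65% of the control mean and at 53.8% of medium. Differences below are on the scale of log2(intensity + 16), with standard errors from the limma fit (1 apilimod array against 2 controls). Apilimod lowered Abca1 by 1.06 ± 0.15 at 3 h, that is a difference of -1.06 (adjusted p = 6.77e-04), and the difference at 7 h was -3.28 ± 0.15 (adjusted p = 7.88e-08). At 1 h (0.16 ± 0.15) and 22 h (-0.08 ± 0.15) no difference passed.

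R848 itself raised Abca1 by 2.58 ± 0.15 at 7 h against medium (adjusted p = 3.14e-07), a 7.04-fold ratio of intensities. At 22 h the R848 controls were below medium (-0.73 ± 0.15, adjusted p = 0.00243, and -0.57 ± 0.14 without the R848+API09 array). The 3 h difference of 0.42 ± 0.15 did not pass (adjusted p = 0.0910), and there the medium array itself stood at 257, above all other medium arrays. The other 2 probe sets of Abca1 were dimmer. For apilimod at 7 h they gave differences of -1.96 and -1.60, of the same sign as the brightest. At 22 h they gave 0.12 and -0.18 for R848 against medium, and with the mean over probe sets the fall of Abca1 at 22 h was -0.26 and no longer passed.

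**Figure D1:**
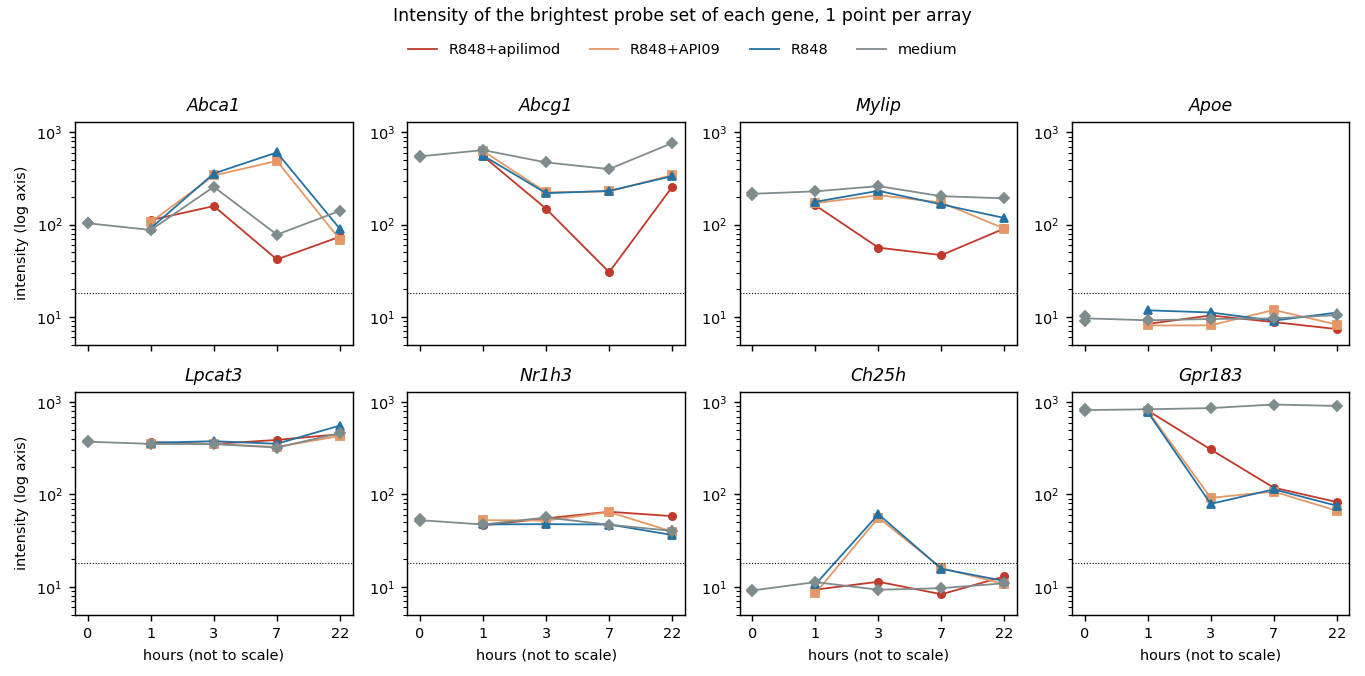
Deposited intensity (log axis) of the brightest probe set of each of the 8 measured genes by hour, with hours spaced evenly and not to scale, 1 point per array and lines joining the arrays of an arm; the dotted line is the filter level of 18.1. Abca1, Abcg1 and Mylip are low on the R848+apilimod array at 7 h, Ch25h stands out only on the 2 R848 control arrays at 3 h, and Gpr183 is high on the medium arrays throughout.

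Abcg1, which passes cholesterol to mature high-density lipoprotein, was lower with R848 than in medium and lower again with apilimod. With R848+apilimod its intensity was 553 at 1 h, 149 at 3 h, 30.5 at 7 h and 257 at 22 h. With R848+API09 it was 629, 224, 229 and 344 at those hours, and with R848 alone 560, 219, 232 and 335. In medium it was 561 and 538 at 0 h, 643 at 1 h, 473 at 3 h, 400 at 7 h and 766 at 22 h. From 3 h on, the arms kept 1 order at each hour without overlap: apilimod lowest, the 2 controls close together above it, and medium highest. Apilimod against the controls gave -0.53 ± 0.09 at 3 h (adjusted p = 0.00304), -2.41 ± 0.09 at 7 h (adjusted p = 1.88e-08) and -0.38 ± 0.09 at 22 h (adjusted p = 0.00815). At 7 h the apilimod array was at 13.2% of the control mean and 7.63% of medium. R848 controls against medium gave -1.04 ± 0.09 at 3 h, -0.75 ± 0.09 at 7 h and -1.14 ± 0.09 at 22 h (adjusted p = 1.54e-05, 9.67e-05 and 4.24e-06).

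The second probe set of Abcg1 was dim and did not show the apilimod difference. It read 15.5, 13.1 and 15.8 with R848+apilimod at 3, 7 and 22 h, against 14.3, 13.4 and 19.4 with R848+API09 and 17.0, 16.4 and 14.4 with R848 alone. Most of these values lie below the filter level. The R848 arm's lower level was visible in it at 22 h, where it differed from medium by -0.83. With the mean over probe sets the apilimod differences of Abcg1 at 3 h (-0.27) and 22 h (-0.21) no longer passed. The 22 h difference was -0.36 without the R848+API09 array of that hour and still passed (adjusted p = 0.0108).

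Mylip encodes the ubiquitin ligase, also called IDOL, that sends the low-density lipoprotein receptor for degradation. It was lower with apilimod at 3 h, as Abca1 and Abcg1 also were, and its differences at 3 and 7 h were close. Timing was not compared between genes. Its intensity with R848+apilimod was 162 at 1 h, 56.3 at 3 h, 46.7 at 7 h and 90.9 at 22 h. With R848+API09 it was 171, 209, 174 and 90.4, and with R848 alone 177, 233, 165 and 118. In medium it was 222 and 209 at 0 h, 229 at 1 h, 262 at 3 h, 203 at 7 h and 193 at 22 h. The R848+apilimod arrays at 3 and 7 h were the 2 lowest of all 18. The difference from the R848 controls was -1.71 ± 0.13 at 3 h (adjusted p = 6.74e-06) and -1.56 ± 0.13 at 7 h (adjusted p = 4.97e-06), at which hours the apilimod arrays stood at 25.5% and 27.5% of the control mean.

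The R848 controls differed from medium in Mylip by -0.37 ± 0.13 at 1 h (adjusted p = 0.829, unadjusted p = 0.0149), -0.23 ± 0.13 at 3 h and -0.24 ± 0.13 at 7 h, none of which passed, and fell by 0.81 ± 0.13 at 22 h (adjusted p = 4.50e-04). Apilimod against the controls at 22 h was -0.16 ± 0.13 and did not pass. Without the R848+API09 array of that hour it was -0.33 ± 0.09 and passed.

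**Figure D2:**
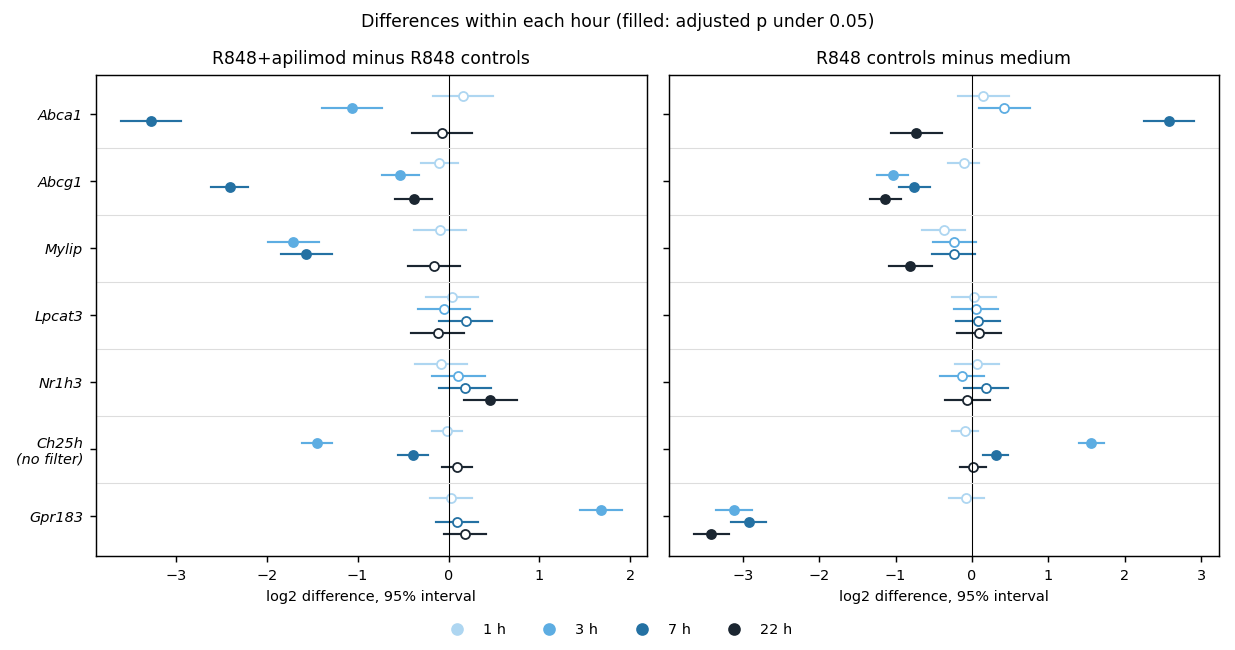
Log2 differences with 95% intervals for the 6 tested members and for Ch25h from the fit with no filter, at 1, 3, 7 and 22 h, for R848+apilimod minus R848 controls (left) and R848 controls minus medium (right); filled points have an adjusted p under 0.05. The apilimod differences of Abca1 (-3.28) and Abcg1 (-2.41) are lowest at 7 h, that of Gpr183 (1.67) is highest at 3 h, and all intervals at 1 h on the left include 0.

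Apoe, the apolipoprotein that carries cholesterol out of macrophages, read 7.38 to 11.9 over all 18 arrays, below the filter level on each. In the fit with no filter, which held 18193 genes, its apilimod differences were -0.09 to 0.04 at 1 to 7 h and -0.13 at 22 h, and none passed. A single dim probe set stood for Apoe and never rose above the filter level, so changes below that level may have been missed. Lpcat3, an acyltransferase that places polyunsaturated chains into membrane phospholipid, was bright. It was nearly level up to 7 h and higher at 22 h in every arm. It read 353 to 451 over the 4 R848+apilimod arrays, 327 to 431 with R848+API09, 355 to 559 with R848 alone and 323 to 462 in medium. No difference of Lpcat3 passed within an hour. For apilimod at 7 h it was 0.19 ± 0.13 (95% interval -0.10 to 0.48), far from the falls of Abca1 and Abcg1. At 22 h its R848+API09 array (431) lay below its R848 array (559). Without that R848+API09 array apilimod was at -0.30 ± 0.09 and passed (adjusted p = 0.0204), as did R848 against medium (0.27 ± 0.09, adjusted p = 0.0292).

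Nr1h3, which encodes LXR alpha, moved little. With R848+apilimod its intensity was 46.3, 55.1, 65.0 and 58.3 at 1, 3, 7 and 22 h. With R848+API09 it was 52.8, 52.2, 64.6 and 39.6, and with R848 alone 47.4, 47.7, 47.3 and 36.4. In medium it ran from 40.3 at 22 h to 56.4 at 3 h. The arms were close at 1 and 3 h. At 7 h the apilimod and API09 arrays were alike and above the other arms, and at 22 h the apilimod array alone was above the others. That was its only difference to pass, 0.46 ± 0.13 (adjusted p = 0.0188). It was 0.50 without the R848+API09 array of that hour and passed there too, but with arrays centred on their medians it was 0.38 and did not pass. At 7 h, where Abca1 and Abcg1 were lowest with apilimod, Nr1h3 differed by 0.18 ± 0.13 (95% interval -0.11 to 0.47).

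Ch25h rose briefly with R848, and the rise was not seen with apilimod. With R848+apilimod its intensity was 9.31, 11.3, 8.29 and 12.9 at 1, 3, 7 and 22 h. With R848+API09 it was 8.49, 56.1, 15.9 and 10.7, and with R848 alone 10.6, 61.1, 15.6 and 11.6. All 6 medium arrays were between 8.91 and 11.2. The 2 control arrays at 3 h were the only arrays above the filter level. In the fit with no filter, apilimod against the controls was -1.45 ± 0.07 at 3 h (adjusted p = 7.68e-06) and -0.39 ± 0.07 at 7 h (adjusted p = 0.00693). R848 controls against medium were 1.56 ± 0.07 at 3 h (adjusted p = 2.57e-06), and 0.31 ± 0.07 at 7 h (adjusted p = 0.0161). The medium and apilimod arrays read below the filter level at both hours, so no fold is given. The 7 h value of R848 rests on intensities below the filter level, and it no longer passed with either control array of that hour left out (0.30, adjusted p = 0.0651, and 0.32, adjusted p = 0.0541). With 1 in place of 16 added before the log, the 3 h apilimod difference was -2.27, so its size depends on that constant.

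Gpr183 was bright in medium and fell after R848, and with apilimod the fall at 3 h was smaller. With R848+apilimod its intensity was 814 at 1 h, 308 at 3 h, 119 at 7 h and 82.9 at 22 h. With R848+API09 it was 806, 92.0, 107 and 66.7 at those hours, and with R848 alone 786, 79.2, 114 and 75.6. The 6 medium arrays ran from 800 to 945. All arms overlapped at 1 h, and from 3 h on every stimulated array lay below every medium array. At 3 h the apilimod array stood at 359% of the control mean and at 35.6% of medium. The apilimod difference was 1.67 ± 0.10 at 3 h (adjusted p = 1.92e-06). At 7 h (0.09 ± 0.10, 95% interval -0.14 to 0.32) and 22 h (0.18 ± 0.10, 95% interval -0.05 to 0.42) it did not pass. The second probe set read 49.3 with R848+apilimod at 3 h, against 28.3 with R848+API09 and 26.5 with R848 alone, the same direction.

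**Figure D3:**
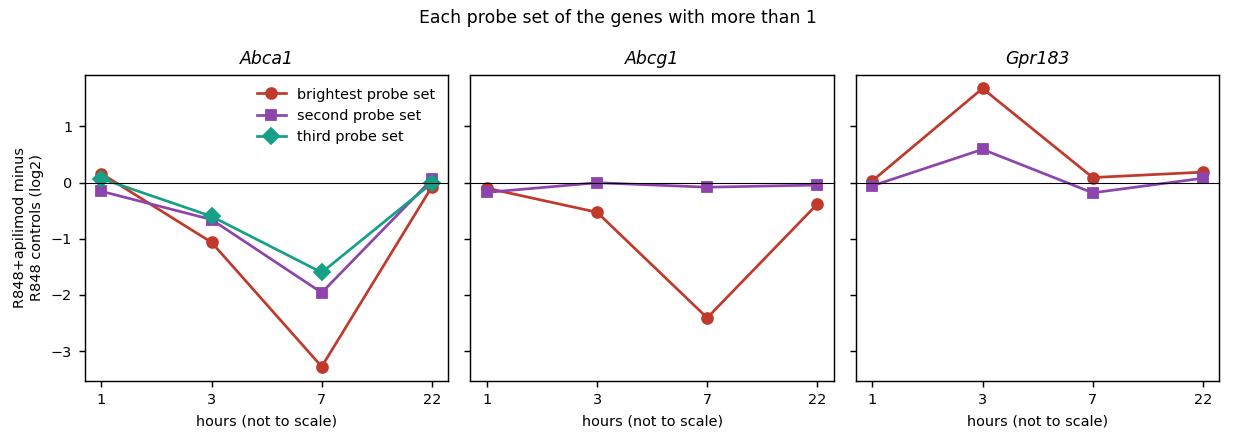
Log2 difference of R848+apilimod from the R848 controls at each hour (spaced evenly, not to scale) for every probe set of the 3 members with more than 1, without error bars because only the brightest was tested. The 3 probe sets of Abca1 share the low point at 7 h (-3.28, -1.96 and -1.60), the dim second probe set of Abcg1 stays near 0 (-0.08 at 7 h), and both probe sets of Gpr183 peak at 3 h (1.67 and 0.59).

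Counted over the tested members, apilimod changed 0 of 6 at 1 h, where 0.00% of all genes passed the adjusted threshold of 0.05 (limma, with 165 at an unadjusted p under 0.05). At 3 h it changed 4 of 6 against 9.19% of all genes, with Gpr183 higher and Abca1, Abcg1 and Mylip lower. At 7 h it lowered 3 of 6, the same 3 genes, against 9.81% of all genes called lower and 19.6% called in all. At 22 h 2 of 6 passed, Nr1h3 higher and Abcg1 lower, against 34.5% of all genes, a share close to the background. Without the R848+API09 array of 22 h the count there was 4, with Lpcat3 and Mylip lower as well, against 39.3% of all genes. The median difference of the 6 was -0.29 at 3 h and -0.74 at 7 h, beside -0.03 and -0.02 over all genes tested. Because the members were chosen with earlier results of these data known, such counts and medians describe them. They do not test the set against all genes.

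For R848 controls against medium the count was 0 of 6 at 1 h (0.702% of all genes called by limma, 0.636% higher and 0.0653% lower, with 469 at an unadjusted p under 0.05). It was 2 of 6 at 3 h (15.4%, of which 6.23% higher and 9.19% lower), Abcg1 and Gpr183, both lower. At 7 h 3 of 6 passed (29.8%, of which 11.3% higher and 18.5% lower), with Abca1 higher and Abcg1 and Gpr183 lower. At 22 h 4 of 6 were lower (29.1% of all genes lower, 16.5% higher and 45.7% in all), namely Abca1, Abcg1, Mylip and Gpr183. Without the R848+API09 array of 22 h the count was 5, with Lpcat3 higher, against 47.2% of all genes. Both comparisons use the same control arrays, so their values are not independent. In medium alone, Abcg1 was higher at 22 h than at 0 h by 0.47 ± 0.09 (1 array against 2, adjusted p = 0.00501). It was the only member of 6 to pass, against 22.0% of all genes (11.2% higher and 10.8% lower), and 2 more members, Abca1 (0.39) and Lpcat3 (0.29), passed when either control array of 22 h was left out of the spread. The share of all genes was then 35.2%, and it was 11.6% or 11.2% without one or the other medium array at 0 h.

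Tested as an interaction, the apilimod difference at 22 h was above that at 7 h in 3 of 6 members (20.1% of all genes called, 11.3% higher and 8.77% lower), and the R848 difference was below it in 3 of 6 (25.4%, 10.3% higher and 15.1% lower). Abca1 and Mylip were in both groups, with Abcg1 for apilimod and Gpr183 for R848. The count for R848 was 1, Abca1, when either medium array at 0 h or either control at 1 or 7 h was left out.

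Apilimod and API09 were compared at the same dose and hours. With the R848+API09 array of the hour as the only control, apilimod changed 4 of 6 members at 3 h, 3 at 7 h and 2 at 22 h, beside 6.37%, 15.7% and 47.8% of all genes in those fits, so that the 22 h count lay below the share over all genes. Abca1 was at -1.03 ± 0.18 at 3 h and -3.13 ± 0.16 at 7 h, Abcg1 at -0.54 ± 0.12 and -2.40 ± 0.11, and Mylip at -1.63 ± 0.15 and -1.60 ± 0.16 (adjusted p from 7.97e-07 to 0.0191). Gpr183 was at 1.58 ± 0.12 at 3 h (adjusted p = 3.36e-05). When the 4 arrays of an arm were fitted together and hours entered as blocks, no gene passed for apilimod against API09 (0.00% of 12257 genes called by limma, 1613 at an unadjusted p under 0.05). There the 95% interval of Abca1 was -2.13 to 0.13, and Abcg1 at -0.88 ± 0.35 (-1.64 to -0.12) and Mylip at -0.82 ± 0.26 (-1.39 to -0.26), with adjusted p of 0.445, 0.296 and 0.187. Differences that change from hour to hour add to the spread of that fit.

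API09 was set against R848 alone over all hours, with 4 arrays each. No gene passed (0.00% called by limma, 182 at an unadjusted p under 0.05). The interval for Abca1 was -1.26 to 1.01, for Abcg1 -0.71 to 0.81, for Mylip -0.68 to 0.45 and for Gpr183 -1.07 to 1.07, so differences of those sizes would have been missed. Lpcat3, with the narrowest interval of the 6, was at -0.15 ± 0.07 (-0.30 to -0.00). In tests added after the data were seen, the 2 arrays of an hour were compared using the spread of the other hours' pairs and of medium at 0 h. For 1, 3 and 7 h that spread includes the 22 h pair, whose R848+API09 array stood apart. Differences at those hours may therefore have been missed. At 1, 3 and 7 h none of the 6 members passed, nor any other gene (limma, with 249, 163 and 391 genes at an unadjusted p under 0.05). At 22 h 2 of 6 passed against 19.9% of all genes, with lower values on the R848+API09 array: Lpcat3 at -0.36 ± 0.09 (adjusted p = 0.0226) and Mylip at -0.33 ± 0.09 (adjusted p = 0.0371). That is the array with the low upper quartile, and its part in these differences was not tested. Abca1 was at -0.32 ± 0.14 there (95% interval -0.63 to -0.01) and did not pass. Within hours, the R848+API09 array differed from the R848 array by -0.36 to 0.35 over the 6 members and 4 hours, against -3.13 to 1.58 for apilimod minus API09. The value of 0.35 was that of Nr1h3 at 7 h.

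Other genes of the pathway were read from lists that the 9 members do not belong to. These lists were also chosen with earlier results of these data known. Of 18 other LXR target genes, 13 were tested. Apilimod raised 3 and lowered 0 of them at 3 h, raised 6 and lowered 1 at 7 h, and raised 1 and lowered 10 at 22 h, beside 5.07%, 9.81% and 20.2% of all genes higher and 4.12%, 9.81% and 14.3% lower. Their median difference at 7 h was 0.07 and at 22 h -0.81, while Abca1, Abcg1 and Mylip were lowest at 3 or 7 h. Fasn, the fatty acid synthase, which the sterol-regulated factor SREBP also controls, was higher at 7 h (1.38 ± 0.12) and lower at 22 h (-0.97 ± 0.12). Its intensity at 7 h was 1309 with R848+apilimod, against 453 with R848+API09, 537 with R848 alone and 511 in medium. Rnf145, an ubiquitin ligase of the endoplasmic reticulum, was higher at 7 h (1.93 ± 0.10) but lower at 22 h (-1.48 ± 0.10). Pltp, which transfers phospholipid between lipoproteins, was lower at 22 h (-1.41 ± 0.12), with an intensity of 399 on the R848+apilimod array against 1032 and 1151 on the control arrays. The 22 h counts were 1 higher and 10 lower without the R848+API09 array as well.

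**Figure D4:**
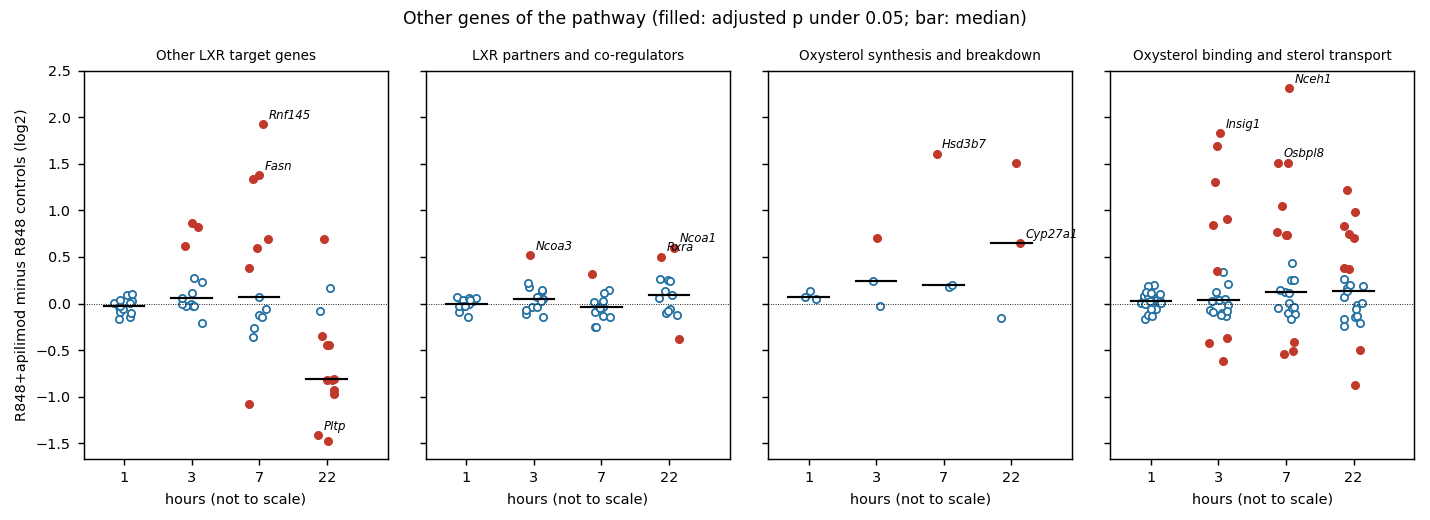
Log2 difference of R848+apilimod from the R848 controls for each tested gene of 4 pathway lists at 1, 3, 7 and 22 h (spaced evenly, not to scale); filled points have an adjusted p under 0.05, bars are medians, and names mark the genes chosen by the naming rule at their largest hour. The other LXR target genes lie mostly above 0 among called genes at 7 h and have a median of -0.81 at 22 h, and Nceh1 reaches 2.31 at 7 h.

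Of 28 genes that bind or move sterols, 23 were tested. Apilimod raised 6, 7 and 7 of them at 3, 7 and 22 h (5.07%, 9.81% and 20.2% of all genes) and lowered 3, 3 and 2 (4.12%, 9.81% and 14.3% of all genes). Without the R848+API09 array of 22 h, 4 were lower at that hour, Gramd1a and Gramd1b in addition. Nceh1, which releases cholesterol from stored esters, was higher by 1.70 ± 0.22, 2.31 ± 0.22 and 1.22 ± 0.22 at these hours. It read 1090 with R848+apilimod at 7 h, against 259 with R848+API09, 164 with R848 alone and 336 in medium. Insig1, a sterol-regulated protein that holds back SREBP processing, was higher by 1.83 ± 0.12, 1.51 ± 0.12 and 0.83 ± 0.12. Osbpl8, an oxysterol-binding-protein relative that moves lipids at membrane contacts, was higher at 3 h (1.30 ± 0.15) and 7 h (1.51 ± 0.15).

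Of 8 enzymes that make or break down oxysterols, 3 were tested. Hsd3b7 is a bile acid enzyme that also inactivates the ligand of Gpr183. At 3 and 7 h its apilimod and R848 differences had opposite signs, and both use the same control arrays. It read 217, 216, 289 and 727 with R848+apilimod at 1, 3, 7 and 22 h, against 206, 122, 95.6 and 228 with R848+API09 and 188, 131, 73.3 and 263 with R848 alone. In medium it was 207 to 248, and at 3 h medium (246) was above the apilimod array. The apilimod array was above both controls at each hour from 3 h on. Against the R848 controls, apilimod gave 0.71 ± 0.13 at 3 h, 1.61 ± 0.13 at 7 h and 1.51 ± 0.13 at 22 h. R848 controls against medium gave -0.88 ± 0.13 at 3 h and -1.40 ± 0.13 at 7 h. At 22 h that difference was 0.23 ± 0.13 and did not pass. Cyp27a1, a mitochondrial enzyme that makes a side-chain oxysterol, was higher with apilimod at 22 h (0.65 ± 0.10) and lower with R848 at 7 h (-0.87 ± 0.10) and 22 h (-1.16 ± 0.10). Of 15 receptor partners and co-regulators, 13 were tested with apilimod. At 3 and 7 h 1 gene each was higher, against 5.07% and 9.81% of all genes, and at 22 h 2 were higher (20.2%) and 1, Rxrb, was lower (14.3%). Rxrb, named after its value was seen, was at -0.38 ± 0.10. These counts moved with single control arrays, to 0 at 3 h without the R848+API09 array, and to 6 at 22 h without the R848 array, where 47.8% of all genes were called. At 7 h the count was 0 when any of 7 single arrays was left out (either medium array at 0 h, either control at 1 or 3 h, or R848+API09 at 7 h). Ncoa3 was higher by 0.52 ± 0.11 at 3 h, and Ncoa1 by 0.60 ± 0.18 and Rxra, which encodes the obligate partner of LXR, by 0.50 ± 0.11 at 22 h. Without the R848+API09 array Ncoa1 was at 0.31 ± 0.08 and Rxra at 0.54 ± 0.11, and both passed.

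As a description over the 18 arrays, the tested genes most like Abca1 by Pearson correlation of log2 values were Tiam1 (0.94), Rap2c (0.89) and Mndal (0.87). Those most like Ch25h were Icosl (0.96), Jak2 (0.93) and Cdyl2 (0.92), and those most like Gpr183 were Stard9 (0.97), Gins3 (0.96) and Dexi (0.96). The points share arms and hours and are not independent. Ch25h was above the filter level only on the 2 control arrays at 3 h, so its correlations rest largely on those arrays.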

How the data were processed

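RNA from 18 RAW cell samples was copied with a NuGEN Ovation kit and read on mouse arrays from Affymetrix in 1 colour, per the labels' protocols. The deposited files give linear intensities by probe set, taken as already normalized by the authors because the arrays' medians ran from 17.5 to 19.2. Limma is named, without version or role, per the submitters' processing notes. How the authors summarised and normalized the intensities is not given in the sources used here. The number of arrays limits the precision.

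Of 45101 probe sets, 34958 had 1 gene symbol in the platform annotation. Current symbols were found by Entrez identifier for 34754. Probe sets were kept where at least 3 arrays exceeded 18.1, the median over all values, and log2(intensity + 16) was tested in R 4.3.3 with limma 3.58.1, moderated variances and Benjamini-Hochberg adjustment over all genes, two-sided, called at 0.05. Within hours each arm and hour had its own mean, with the R848 and R848+API09 arrays sharing 1, so that these pairs and the 2 medium arrays at 0 h gave the spread. Arrays without a partner (apilimod, medium after 0 h) are taken to vary as these do. A fit of all 18 arrays used arm terms and hour blocks. Members and lists were chosen with earlier results of these data known. All members were named, and from each list the 3 genes with the largest called apilimod difference at any hour. The code was tested on simulated data. Alternatives changed the normalization, the filter, the constant added, the probe sets, the variances, the threshold and the arrays.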

Additional observations from a re-analysis of the deposited data

Results flagged for a closer look

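The hour of measurement changed the apilimod difference of 3 members. The difference at 22 h minus that at 7 h, tested as an interaction (limma, Benjamini-Hochberg over 12257 genes, 20.1% of them called), was 3.20 ± 0.21 for Abca1 (adjusted p = 7.93e-06), 2.03 ± 0.13 for Abcg1 (adjusted p = 7.25e-06) and 1.41 ± 0.18 for Mylip (adjusted p = 3.73e-04), so all 3 were less reduced at 22 h. From 7 to 22 h, Abcg1 went from 30.5 to 257 with R848+apilimod, and its control mean went from 231 to 340. Abca1 went from 42.0 to 74.0 with R848+apilimod, while its control mean fell from 549 to 79.4. Mylip went from 46.7 to 90.9 with R848+apilimod, while its control mean fell from 170 to 104.

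The R848 difference also changed between these hours (25.4% of all genes called), by -3.31 ± 0.21 for Abca1 (adjusted p = 7.40e-06), by -0.49 ± 0.15 for Gpr183 (adjusted p = 0.0334) and by -0.56 ± 0.18 for Mylip (adjusted p = 0.0419). The values of Gpr183 and Mylip were lost when 1 array was left out: for both genes, either medium array at 0 h or either control array at 1 or 7 h, and for Mylip also either control array at 3 h. Without such an array they ran from -0.52 to -0.45 for Gpr183 and from -0.60 to -0.53 for Mylip. Without the R848+API09 array of 22 h all 6 values passed, at 3.04, 2.04 and 1.24 for apilimod (Abca1, Abcg1, Mylip) and at -3.15, -0.42 and -0.40 for R848 (Abca1, Gpr183, Mylip). Lpcat3 for apilimod (-0.49) and Abcg1 for R848 (-0.40) then passed as well. No cause was tested.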

How the results depend on the processing

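Of the 25 member differences called, 416 of 449 repeats under other settings stayed called with the same sign, 33 did not pass and 0 changed sign. Repeats that altered only the filter, the variances, the threshold or arrays outside a comparison left its estimate as it was. Those repeats could not change the sign. For apilimod at 22 h the 2 members called became 1 with arrays centred on their medians, with the 75th percentile filter and with the mean over probe sets, 0 with a minimum log2 difference of 1, and 2 to 4 with arrays left out. For R848 at 22 h the 4 became 2 with that minimum. For medium at 22 h against 0 h the 1 became 3 with quantile normalization and with centred arrays, 0 with the minimum, and 1 to 3 with arrays left out. For the 22 h against 7 h difference of the R848 effect the 3 became 1 with centred arrays and with the minimum, and 1 to 4 with arrays left out. The minimum is a stricter threshold by construction, and otherwise the cause was not tested. Over all hours, 545 genes passed for apilimod against API09 without the 1 h arrays, against 0 with them, and no member among them (Mylip -1.08, adjusted p = 0.0551). For API09 against R848 alone the 0 members called over all hours became 2 within 22 h and 0 within 1, 3 or 7 h, a test added after seeing the data. Dim probe sets (Apoe, Ch25h, the second of Abcg1) limit what could be detected.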

Other observations

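Several genes of the lists responded to R848 in ways the account of apilimod does not cover. Of 13 receptor partners and co-regulators, 5 fell and 0 rose at 3 h against medium, beside 9.19% of all genes lower. They were the coactivator genes Ncoa1 (-0.58 ± 0.18), Ncoa2 (-0.79 ± 0.16), Ncoa3 (-0.64 ± 0.11) and Ep300 (-0.56 ± 0.13), and Rxrb (-0.38 ± 0.10), which encodes another partner of LXR (1 medium array against 2 controls). That count was 3 without the R848+API09 array of 3 h and 2 without the R848 array. Ncoa2 was also lower at 7 h (-0.68 ± 0.16) and 22 h (-1.26 ± 0.16). Gramd1a, which encodes a protein that carries cholesterol from the plasma membrane to the endoplasmic reticulum, was higher by 1.15 ± 0.09, 1.16 ± 0.09 and 1.16 ± 0.09 at 3, 7 and 22 h. With apilimod it was lower than in the R848 controls at 3 h (-0.37 ± 0.09) and 7 h (-0.51 ± 0.09). It and Ncoa2 were singled out after their values were seen.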
